A study of Saccharomyces cerevisiae with 12 samples.

Results

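The siderophore iron uptake genes of Saccharomyces cerevisiae were followed here as a set of 9 genes, chosen by name and function: the transporters ARN1, ARN2, SIT1 and ENB1, the cell wall mannoproteins FIT1, FIT2 and FIT3, and the reductases FRE3 and FRE5. All 9 were found by gene symbol or synonym, each with 1 probe set, among 5449 genes measured on Affymetrix Yeast Genome 2.0 arrays. The study grew the laboratory strain CEN.PK113-7D and the industrial wine strain EC1118 at 15 °C and at 30 °C, with 3 biological replicate cultures and 1 array in each of the 4 groups. All 12 cultures were steady-state chemostats, limited for nitrogen and kept anaerobic at a dilution rate of 0.05 per h, in minimal medium to which anaerobic factors had been added. The iron content of the medium, and any siderophore in it, is not given in the sources used here.

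Baker's yeast makes no siderophores of its own, but it takes up the iron-loaded siderophores released by other microbes. Transporters of the ARN family carry the intact ferric siderophore, FIT mannoproteins hold it in the cell wall, and surface reductases can free the iron so that it enters by the reductive route, in which the oxidase Fet3 needs oxygen and works with the permease Ftr1. The activator Aft1, with its paralogue Aft2, switches on both routes when iron is short.

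Values are the deposited array intensities, which carry a lower floor of 10 units. Between 1.90% and 3.31% of probe sets lay at that floor, and replicate arrays correlated at 0.975 to 0.994 across probe sets on the log2 scale. Array medians were 329 to 353 at 15 °C and 356 to 371 at 30 °C, and the median log2 change of all genes was -0.11 in CEN.PK113-7D and -0.04 in EC1118. Intensities are relative to all RNA on an array, so fewer expressing cells and less RNA per cell cannot be told apart. The 6 listed genes specific to mating type a and the 7 listed haploid genes were higher on every CEN.PK113-7D array than on any EC1118 array, and of 4 listed genes specific to mating type alpha, STE3 and SAG1 were so too while the other 2 overlapped. The ranges of the 6 genes of anaerobic growth overlapped between the strains, as for DAN1 (2576 to 5007 over all arrays) and TIR4 (1017 to 6344). Those of 3 genes of aerobic growth overlapped too, but not all were steady across arrays. CYC1 ran from 30.6 to 548, and was highest in replicate 3 at 15 °C of both strains (530 and 548). The strain comparisons below therefore also compare cells of different mating type programmes, and the part of these genes in the results was not tested. Intensities of different probe sets are not compared with each other.

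**Figure D1:**
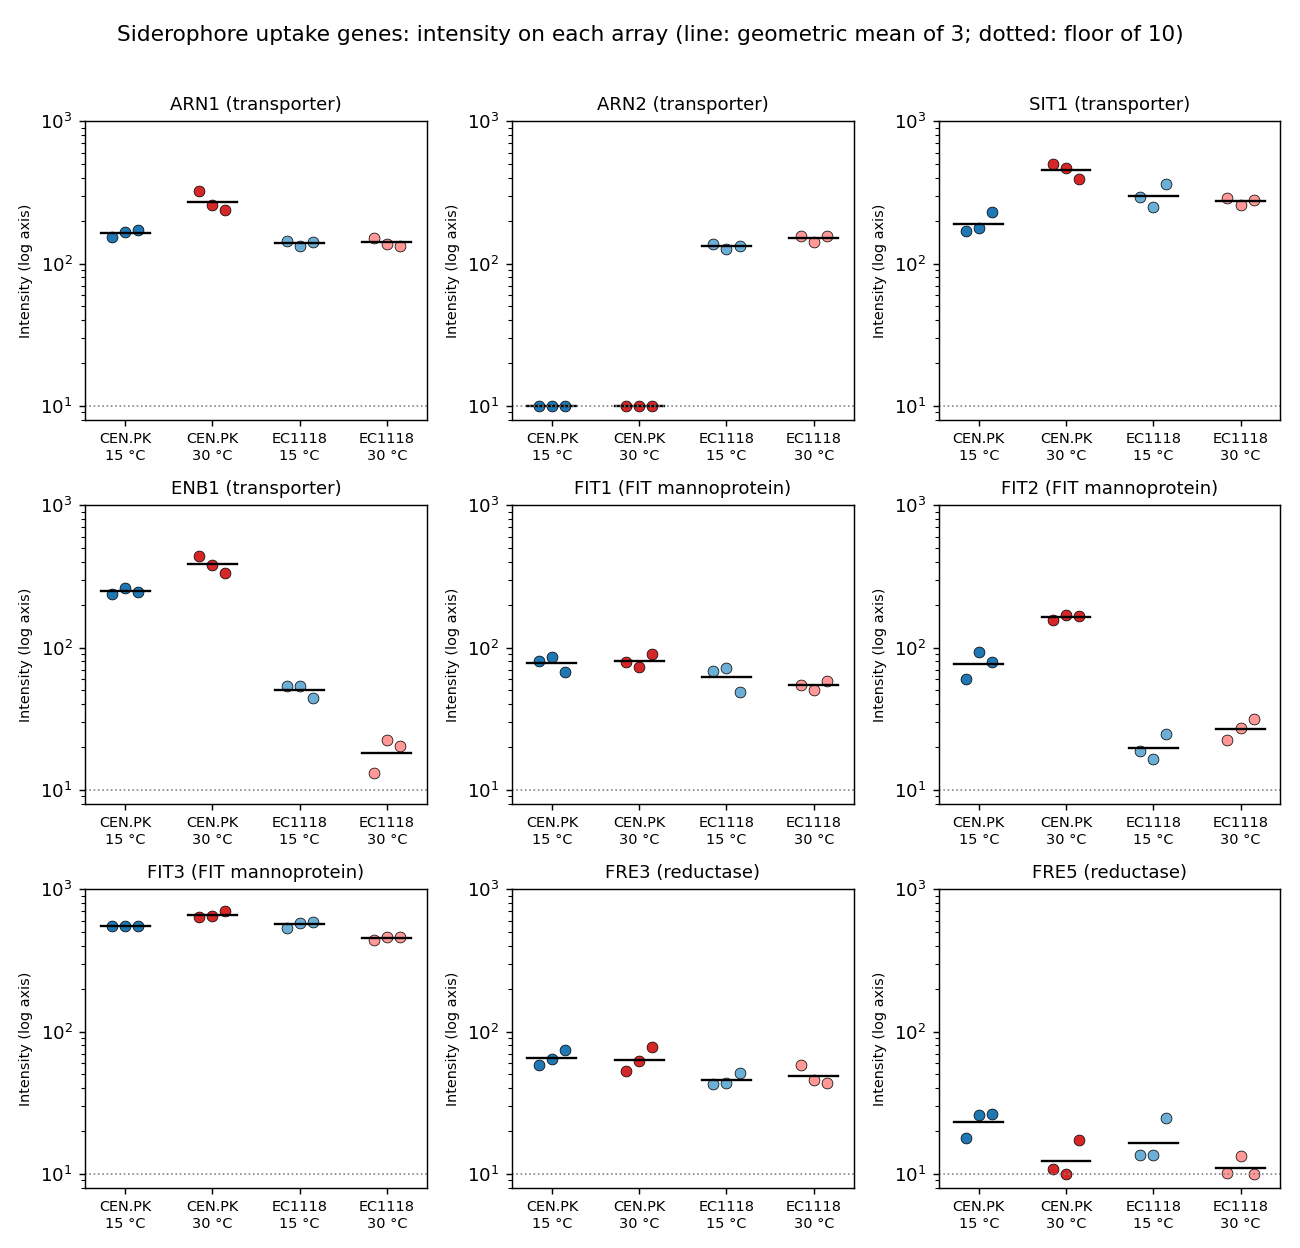
Deposited intensity (log axis) of the 9 siderophore uptake genes on each of the 12 arrays, by strain and temperature; points are arrays, lines are geometric means of 3 and the dotted line is the floor of 10. ENB1 and FIT2 are lower on all EC1118 arrays than on any CEN.PK113-7D array, and ARN2 is at or within rounding of the floor on all CEN.PK113-7D arrays.

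Of the 4 transporters, 3 fell in the cold in CEN.PK113-7D, and for these 3 the response to temperature differed in EC1118 by a direct test. In CEN.PK113-7D, ARN1, SIT1 and ENB1 were each lower at 15 °C than at 30 °C, by 1.54- to 2.39-fold. Of all genes, 36.6% were called lower there, by any amount. Among the 5449 genes, 193 had a larger log2 fall than SIT1, 688 than ARN1 and 898 than ENB1. In EC1118, ENB1 was 2.76-fold higher at 15 °C, and SIT1 and ARN1 did not pass the test. ARN2 was measured above the floor in EC1118 and not in CEN.PK113-7D.

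SIT1 encodes the transporter of ferrioxamine-type siderophores. On the CEN.PK113-7D arrays its intensity was 169, 177 and 229 at 15 °C and 503, 470 and 392 at 30 °C. On the EC1118 arrays it was 294, 250.2 and 360.2 at 15 °C and 289, 259 and 278 at 30 °C. The temperature groups were therefore well apart in the laboratory strain and overlapped in the wine strain, whose values lay between the CEN.PK113-7D groups. In CEN.PK113-7D, SIT1 fell by 1.25 ± 0.15 on the log2 scale at 15 °C (SE, n = 3 cultures per group, limma with Benjamini-Hochberg adjustment over all genes, adjusted p = 8.15e-05). In EC1118 the difference was 0.12 ± 0.15 (limma adjusted p = 0.548). The difference between these responses, tested directly as the interaction of strain and temperature, was 1.37 ± 0.22 (limma adjusted p = 0.00386). The order of the strains turned over with temperature: SIT1 was 1.57-fold higher in EC1118 at 15 °C (limma adjusted p = 0.00891) and 1.65-fold lower in EC1118 at 30 °C (limma adjusted p = 0.00391).

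ENB1 encodes the transporter of enterobactin, a catecholate siderophore of bacteria. Its intensity was 239, 261 and 246 at 15 °C and 440 (439.7), 382 and 335 at 30 °C in CEN.PK113-7D. In EC1118 it was 53.4, 54.0 and 44.4 at 15 °C and 13.2, 22.4 and 20.5 at 30 °C. The 4 groups did not overlap, and temperature moved the gene in opposite directions in the strains: it was lower in the cold in CEN.PK113-7D and higher in the cold in EC1118, where the 30 °C arrays lay close to the floor. The log2 change from 30 °C to 15 °C was -0.63 ± 0.18 in CEN.PK113-7D (limma adjusted p = 0.0125) and 1.47 ± 0.18 in EC1118 (limma adjusted p = 1.02e-04). The interaction was 2.09 ± 0.25 (limma adjusted p = 0.00108). Between strains, ENB1 was 4.93-fold lower in EC1118 at 15 °C (249 ± 11.0 against 50.6 ± 5.39, mean ± SD, n = 3 cultures each, limma adjusted p = 6.42e-06). At 30 °C it was 21.0-fold lower (386 ± 52.6 against 18.7 ± 4.83, limma adjusted p = 2.90e-08).

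ARN1 encodes a transporter of ferrichromes. In CEN.PK113-7D it read 153, 165.5 and 172 at 15 °C and 321, 256 and 238 at 30 °C. In EC1118 it read 145, 134 and 142 at 15 °C and 151, 137 and 134 at 30 °C. Only the CEN.PK113-7D arrays at 30 °C stood clearly higher, while the EC1118 arrays of both temperatures overlapped. ARN1 fell by 0.72 ± 0.11 on the log2 scale at 15 °C in CEN.PK113-7D (limma adjusted p = 2.36e-04), and its change in EC1118 was -0.01 ± 0.11 (limma adjusted p = 0.980). The interaction was 0.72 ± 0.15 (limma adjusted p = 0.0121). ARN1 was 1.92-fold lower in EC1118 at 30 °C (limma adjusted p = 6.98e-05). At 15 °C the strain groups did not overlap, yet the log2 difference of -0.22 missed the threshold (limma adjusted p = 0.134), and it passed when CEN.PK113-7D 30 °C replicate 1, which enters the shared estimate of the spread, was left out (adjusted p = 0.0437).

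ARN2 encodes the transporter of triacetylfusarinine C, a fungal siderophore. On the CEN.PK113-7D arrays 5 of 6 values were at the floor exactly and the other was 10.0. In EC1118 the intensity was 137, 127 and 132 at 15 °C and 157, 142 and 157 at 30 °C. The strains were thus fully separated at both temperatures, with ARN2 at least 13.2-fold higher in EC1118 at 15 °C and at least 15.2-fold higher at 30 °C, as ratios of geometric means with the floor taken as the CEN.PK113-7D level (limma adjusted p = 1.35e-11 and 7.86e-12). Counting values up to 10.5 as at the floor, 9 genes of the whole array (0.165%) were at it on all CEN.PK113-7D arrays and above it on all EC1118 arrays, and 17 (0.312%) showed the reverse. Whether each strain carries ARN2, or the sequence its probes were made for, was not tested. Within EC1118, ARN2 fell by 0.20 ± 0.06 on the log2 scale at 15 °C (limma adjusted p = 0.0105), a call lost with quantile normalization (0.0775), with centring of each array on its median (0.174) and with a trended, robust variance prior (0.177).

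FIT2 was the mannoprotein gene with both a temperature and a strain difference of more than 2-fold. Its intensity was 60.4, 92.3 and 78.9 at 15 °C and 155, 169 and 167 at 30 °C in CEN.PK113-7D. In EC1118 it was 18.7, 16.4 and 24.5 at 15 °C and 22.5, 27.4 and 31.7 at 30 °C. All EC1118 arrays were below all CEN.PK113-7D arrays, and the temperature groups were apart in CEN.PK113-7D and overlapped in EC1118. FIT2 fell 2.15-fold at 15 °C in CEN.PK113-7D (log2 -1.10 ± 0.19, limma adjusted p = 5.68e-04). In EC1118 the log2 change was -0.46 ± 0.19 (limma adjusted p = 0.0572), which passed the threshold with quantile normalization (0.0265) and without CEN.PK113-7D 15 °C replicate 1 or 2, EC1118 15 °C replicate 3 or EC1118 30 °C replicate 1 (0.0177 to 0.0481). Between strains it was 3.89-fold lower in EC1118 at 15 °C (limma adjusted p = 2.75e-05) and 6.06-fold lower at 30 °C (limma adjusted p = 2.59e-06). The interaction of 0.64 did not pass (limma adjusted p = 0.139), but did so with a pseudocount of 50 (adjusted p = 0.0109).

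FIT3 moved by small amounts with little spread. In CEN.PK113-7D it read 555, 552 and 549 at 15 °C and 640.4, 651 and 697 at 30 °C. In EC1118 it read 534, 574 and 592 at 15 °C and 437, 462 and 459 at 30 °C. The temperature groups did not overlap in either strain, and their order was opposite: lower in the cold in CEN.PK113-7D and higher in the cold in EC1118. The log2 changes were -0.26 ± 0.06 (limma adjusted p = 0.00300) and 0.32 ± 0.06 (limma adjusted p = 0.00101), with an interaction of 0.59 ± 0.08 (limma adjusted p = 0.00210). The fall in CEN.PK113-7D depended on the scaling: it was -0.14 with median centring (adjusted p = 0.0642) and -0.07 with quantile normalization (adjusted p = 0.318), while the rise in EC1118 and the interaction passed under both. The strains were not distinguished at 15 °C (0.04 ± 0.06, limma adjusted p = 0.669), and FIT3 was 1.46-fold lower in EC1118 at 30 °C (limma adjusted p = 4.56e-05).

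FIT1 changed least of the mannoprotein genes with temperature. It read 80.7, 85.8 and 67.2 at 15 °C and 79.7, 73.0 and 90.2 at 30 °C in CEN.PK113-7D, and 68.6, 72.2 and 49.0 at 15 °C and 55.0, 50.3 and 58.6 at 30 °C in EC1118. The strains were apart at 30 °C and overlapped at 15 °C. The strain difference at 30 °C was -0.56 ± 0.15 on the log2 scale (1.48-fold lower in EC1118, limma adjusted p = 0.0129), but it did not pass with quantile normalization (-0.23, adjusted p = 0.334) or without CEN.PK113-7D 30 °C replicate 3 (adjusted p = 0.0506). The change with temperature was -0.06 in CEN.PK113-7D (limma adjusted p = 0.768) and 0.19 in EC1118 (limma adjusted p = 0.303), the latter passing only when EC1118 15 °C replicate 3 was left out (adjusted p = 0.0313).

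Like all members but SIT1 and FIT3, the reductase genes were too dim to pass a filter on dim genes. FRE3 did not pass for temperature in either strain, and FRE5 rose in the cold in CEN.PK113-7D. FRE3, which encodes a reductase of siderophore-bound iron, read 57.9, 64.0 and 74.1 at 15 °C and 52.6, 61.9 and 77.9 at 30 °C in CEN.PK113-7D, and 42.5, 43.5 and 50.9 at 15 °C and 58.6, 45.9 and 43.4 at 30 °C in EC1118. Its temperature groups overlapped in both strains (limma adjusted p = 0.857 and 0.612). At 15 °C, FRE3 was 1.43-fold lower in EC1118 (limma adjusted p = 0.0327), but it did not pass with quantile normalization (adjusted p = 0.228) or without CEN.PK113-7D 15 °C replicate 2 or 3 or EC1118 15 °C replicate 1 or 2 (adjusted p = 0.0739 to 0.101). At 30 °C the difference was -0.37 (limma adjusted p = 0.0886), and it passed without CEN.PK113-7D or EC1118 30 °C replicate 1 (adjusted p = 0.0361 and 0.0392).

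FRE5, a gene of the same reductase family, read 18.0, 26.1 and 26.5 at 15 °C and 10.8, 10.0 and 17.4 at 30 °C in CEN.PK113-7D. In EC1118 it read 13.5, 13.7 and 24.8 at 15 °C and 10.2, 13.4 and 10.0 at 30 °C, with 1 array of each 30 °C group at the floor. It was the 1 gene of the set that rose in the cold in CEN.PK113-7D, by at least 1.88-fold as a ratio of geometric means that holds 1 array at the floor (log2 0.91 ± 0.28, limma adjusted p = 0.0182), and that call was lost without CEN.PK113-7D 15 °C replicate 2 or 3 or 30 °C replicate 1 or 2 (adjusted p = 0.0552 to 0.0688). In EC1118 the log2 change was 0.58 (limma adjusted p = 0.105), which passed with median centring (0.0427).

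**Figure D2:**
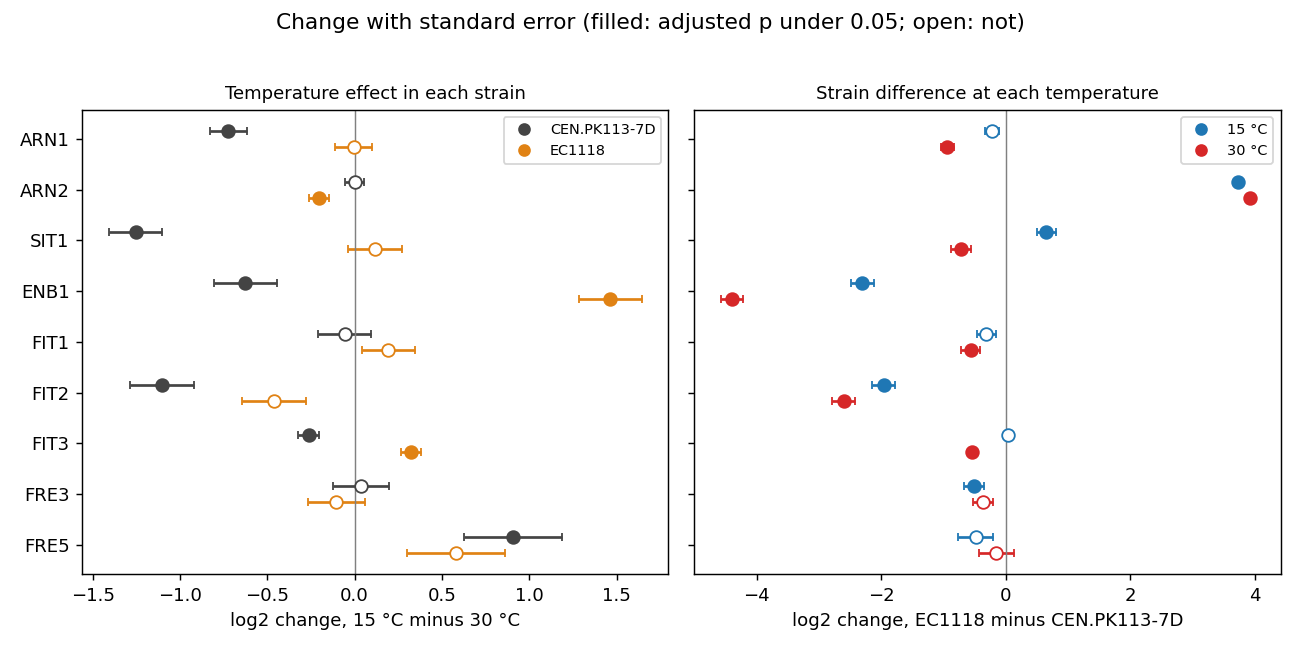
Log2 changes of the 9 genes with temperature in each strain (left, 15 °C minus 30 °C) and between strains at each temperature (right, EC1118 minus CEN.PK113-7D); points are limma estimates, bars are standard errors, and open points have an adjusted p of 0.05 or above. ENB1 is at -0.63 in CEN.PK113-7D and 1.47 in EC1118, and SIT1 is at 0.65 between strains at 15 °C and -0.72 at 30 °C.

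Counted over the set, 6 of 9 genes passed the test for temperature in CEN.PK113-7D (1 higher and 5 lower at 15 °C), where 58.5% of all genes did (21.8% higher and 36.6% lower), so the share was near the background. The same number had temperature groups that did not overlap, against 62.8% of all genes. In EC1118, 3 of 9 passed (2 higher and 1 lower), against a background of 54.2% (24.2% higher and 30% lower), and 4 did not overlap, against 62.7%. The median log2 change of the 9 genes was -0.26 in CEN.PK113-7D and 0.12 in EC1118.

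For the strain difference, 5 of 9 genes passed at 15 °C (2 higher and 3 lower in EC1118), against 33.1% of all genes (19% higher and 14% lower). At 30 °C, 7 of 9 passed (1 higher and 6 lower), against 41.4% of all genes (21% higher and 20.4% lower). The strain groups did not overlap for 6 genes at 15 °C and 7 at 30 °C, against 44.9% and 54.9% of all genes, and the median difference at 30 °C was -0.56 for the set and 0.01 for all genes. The interaction was called for 4 of 9 genes, all with a higher cold response in EC1118, against 13% of all genes (8.66% in that direction and 4.37% in the other). These comparisons share arrays, since each group enters more than 1 of them, and the counts are therefore not separate pieces of evidence. Folds of dim genes depended on the scale: with a pseudocount of 50 the strain difference at 30 °C was -2.66 for ENB1, -1.47 for FIT2 and 1.75 for ARN2, in place of -4.39, -2.60 and 3.93. At 15 °C the same setting gave -1.57 for ENB1, -0.86 for FIT2 and 1.60 for ARN2, in place of -2.30, -1.96 and 3.72. The temperature response of ENB1 in EC1118 became 0.55 in place of 1.47, and that of FRE5 in CEN.PK113-7D 0.23 in place of 0.91, all still past the threshold.

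The 9 genes share a place near chromosome ends. In the gene order of the R64 reference annotation, all lay within 15 protein-coding genes of an end: FIT1 on chromosome IV, SIT1 on V, ARN2 and ARN1 on the left arm of VIII, ENB1 on the left arm of XV, and FRE3, FIT2, FIT3 and FRE5 close together on the right arm of XV. The limit of 15 was set by the member farthest in, FRE3. Of 406 measured genes that near an end, 48.5% were called between strains at 15 °C and 54.7% at 30 °C. Changes of 2-fold or more between strains were found for 21.2% of them at 15 °C and 24.1% at 30 °C, against 6.24% and 7.58% of all genes, and for 3 of the 9 siderophore genes at each temperature. For the interaction, 23.2% of these genes were called.

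**Figure D3:**
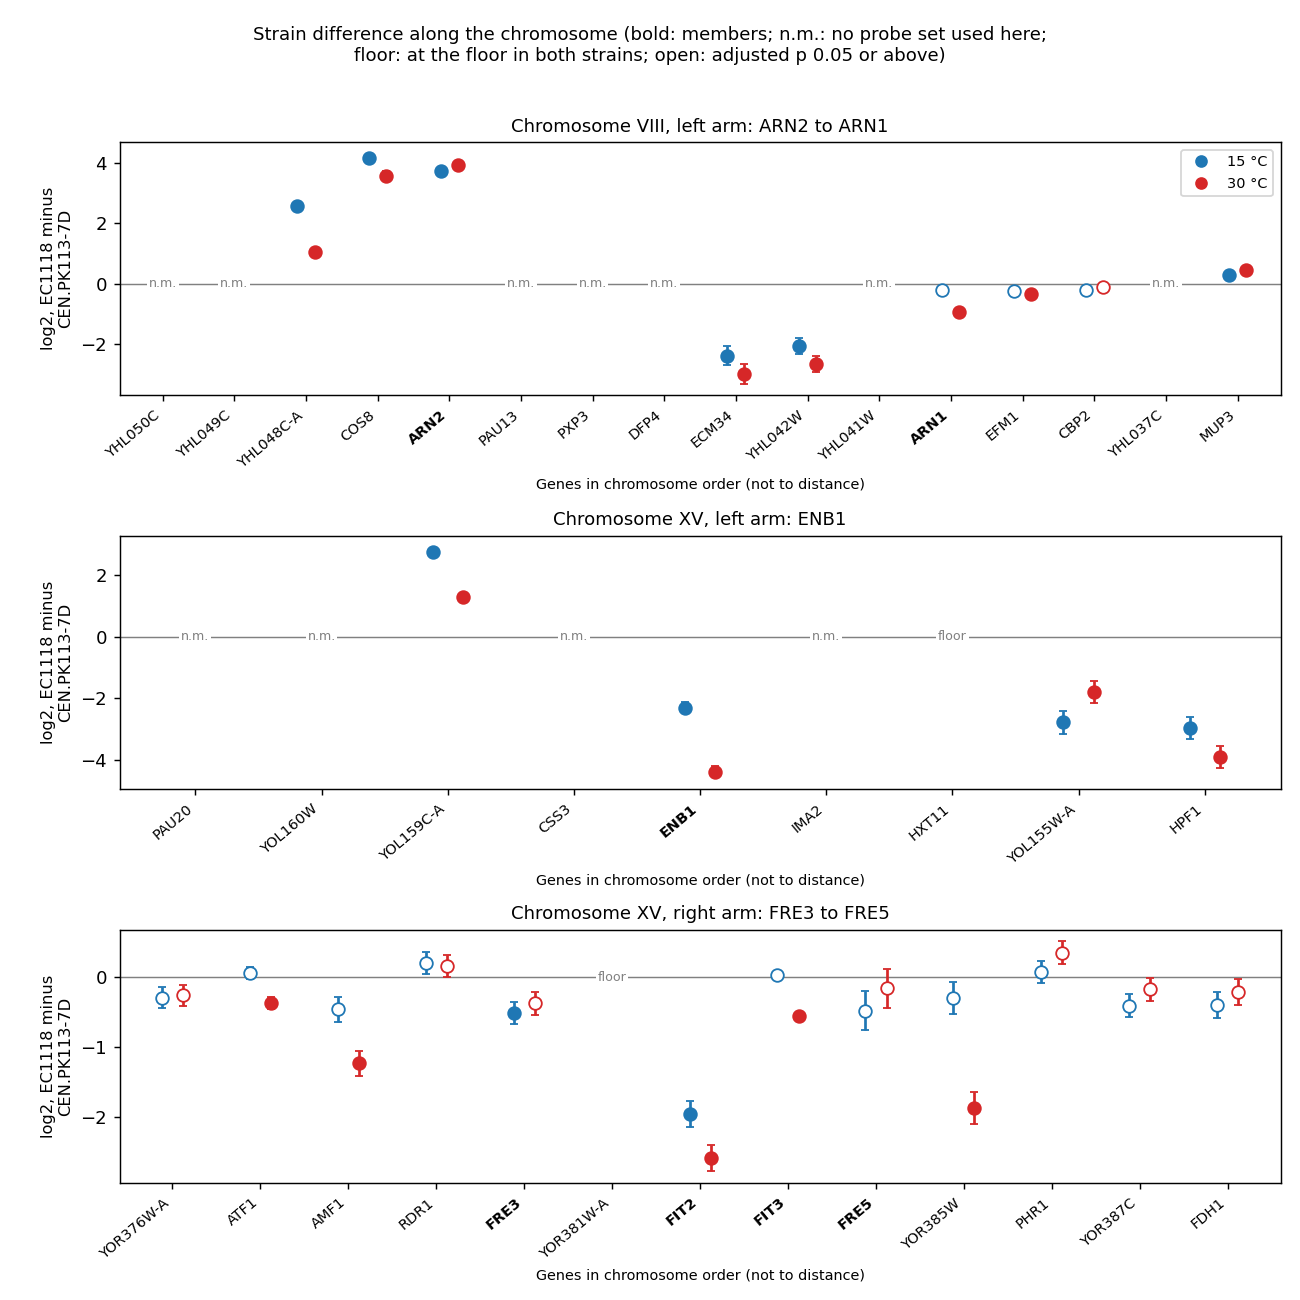
Log2 strain difference (EC1118 minus CEN.PK113-7D) at 15 °C and 30 °C for siderophore genes (bold) and their neighbours in R64 gene order; bars are standard errors and open points have an adjusted p of 0.05 or above. COS8 and ARN2 are both higher in EC1118 (3.58 to 4.16), ENB1 and HPF1 are both lower (-2.30 to -4.39), and RDR1, beside FRE3, does not pass at either temperature.

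Several genes close to ARN2, ARN1 and ENB1 differed between strains by more than 2-fold, though most of those named here were chosen after their values were seen. Beside ARN2, COS8, of a subtelomeric membrane protein family whose copies may share probes, read 28.3 ± 6.57 in CEN.PK113-7D and 497 ± 25.7 in EC1118 at 15 °C (SD, n = 3 each). Its log2 difference was 4.16 at 15 °C and 3.58 at 30 °C (limma adjusted p = 1.38e-08 and 3.07e-08). The next gene outward, YHL048C-A, was at the floor on all CEN.PK113-7D arrays and at least 5.93-fold higher in EC1118 at 15 °C (limma adjusted p = 1.78e-07). Between ARN2 and ARN1 the direction was the opposite: ECM34 was 5.26-fold lower and YHL042W 4.21-fold lower in EC1118 at 15 °C. No probe set was used here for CSS3 and IMA2, which flank ENB1. A few genes farther in, HPF1, which encodes a cell wall mannoprotein, was 7.80-fold lower in EC1118 at 15 °C and 15.0-fold lower at 30 °C (limma adjusted p = 1.19e-04 and 1.21e-05), and YOL155W-A was also lower. On the outer side of ENB1, YOL159C-A was higher in EC1118 (log2 2.76 and 1.29).

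The cluster on the right arm of XV was less uniform. FIT2 and FIT3 are adjacent in R64, yet at 15 °C their strain differences were -1.96 and 0.04. RDR1, beside FRE3, did not pass at either temperature (log2 0.21 and 0.16). YOR385W, beside FRE5, was lower in EC1118 at 30 °C (-1.88, limma adjusted p = 1.09e-04) and did not pass at 15 °C (-0.30, limma adjusted p = 0.342). SIT1's neighbour HPA3 was 1.65-fold higher in EC1118 at 15 °C, near the 1.57-fold of SIT1, but at 30 °C its log2 difference was 0.26 (limma adjusted p = 0.0773) where that of SIT1 was -0.72. On the other side of SIT1, AVT2 did not pass at either temperature (0.25 and -0.04). EFM1, beside ARN1, did not pass at 15 °C (-0.23) and was slightly lower in EC1118 at 30 °C (-0.34). Beside FIT1, HSP31 was higher in EC1118 at both temperatures (0.76 and 1.29), while STL1 was lower at 30 °C (-0.88) and did not pass at 15 °C (-0.10). YOR381W-A, between FRE3 and FIT2, was at the floor on 10 arrays. Copy number and sequence differences between the strains at these ends were not tested.

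In the rest of the iron regulon, of 4 high-affinity reductive genes measured, 2 fell and 1 rose in the cold in CEN.PK113-7D, and 3 fell in EC1118. Of all genes, 36.6% fell in CEN.PK113-7D and 30% in EC1118. In CEN.PK113-7D, FRE2 rose (mean 46.0 to 62.2) and FRE1 did not pass (227 ± 3.85 to 147 ± 104, mean ± SD). FTR1, the high-affinity iron permease, fell in the cold in both strains: from 691 ± 80.1 to 137 ± 16.3 in CEN.PK113-7D (5.05-fold, SD, n = 3 each, limma adjusted p = 2.88e-06). In EC1118 it fell from 452 ± 44.9 to 124 ± 27.3 (3.69-fold, limma adjusted p = 1.20e-05), and the interaction of 0.45 did not pass (limma adjusted p = 0.218). FET3, the multicopper oxidase that works with Ftr1, also fell in both strains, with an interaction of 2.10 ± 0.25 (limma adjusted p = 0.00103). The falls were at least 8.71-fold in CEN.PK113-7D and at least 2.04-fold in EC1118 as ratios of geometric means. These are bounds because 15 °C arrays of both strains lay at or near the floor (means 11.5 and 11.8). The FET3 interaction is limited by the floor too, and mostly follows the 30 °C levels, 101 in CEN.PK113-7D and 24.3 in EC1118. FRE4, another gene for a reductase of siderophore-bound iron, fell 2.38-fold in CEN.PK113-7D and 1.95-fold in EC1118 (limma adjusted p = 5.41e-05 and 3.12e-04), where FRE3 did not pass in either strain.

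Of 13 other genes reported as Aft1 or Aft2 targets, 8 fell and 1 rose in the cold in CEN.PK113-7D, where 36.6% of all genes fell. In EC1118 5 fell and 2 rose, where 30% of all genes fell, and the list's median log2 change was -0.36 in CEN.PK113-7D and 0.0058 in EC1118. TIS11 (also called CTH2), whose product marks messenger RNAs of iron-using proteins for decay, fell 5.31-fold and 4.62-fold (limma adjusted p = 1.13e-06 and 3.49e-06). The interaction of TIS11 was 0.20 (limma adjusted p = 0.549). SMF3, a vacuolar iron exporter, fell 2.54-fold and 2.07-fold, and CCC2, which loads copper onto Fet3, fell 2.11-fold and 2.15-fold. The EC1118 values of SIT1 and ARN1, 0.12 and -0.01, lay near the median of the list in that strain, which was itself near that of all genes (-0.04). They were unlike the falls of TIS11, SMF3 and CCC2 there.

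AFT1 itself read 131, 101 and 133 at 15 °C and 318, 374 and 359.6 at 30 °C in CEN.PK113-7D. In EC1118 it read 156, 140.4 and 171 at 15 °C and 280.1, 262 and 198 at 30 °C. Its temperature groups were apart in both strains, and its level fell by 1.54 ± 0.15 and by 0.66 ± 0.15 on the log2 scale (limma adjusted p = 1.92e-05 and 0.00387). The interaction was 0.88 ± 0.21 (limma adjusted p = 0.0221), in the same direction as those of ARN1, SIT1, ENB1, FIT3 and FET3. That direction was the commoner one among all genes (8.66% called, against 4.37% in the other). The interactions of FTR1, TIS11, CCC2, FIT1, FIT2 and ARN2 did not pass, and that of FET3 was limited by the floor. A link of these changes to AFT1 was not tested. AFT2 was not called for temperature in either strain.

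**Figure D4:**
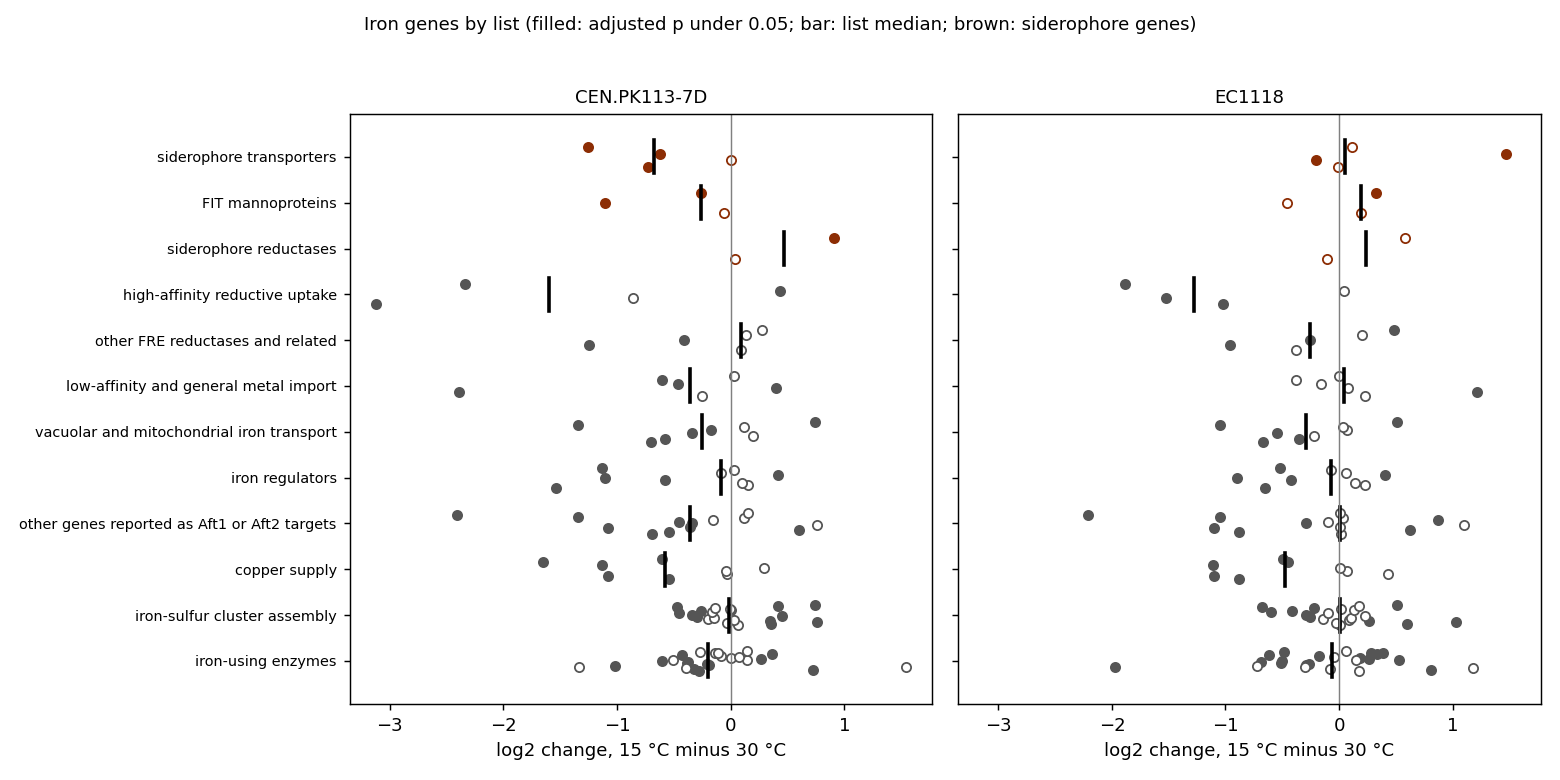
Log2 change from 30 °C to 15 °C of each iron-related gene in CEN.PK113-7D and in EC1118, grouped by function; points are genes, and filled points have an adjusted p under 0.05, vertical bars are list medians, and siderophore genes are brown. The high-affinity reductive genes have medians of -1.60 and -1.28, while the siderophore transporters have medians of -0.67 and 0.055.

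Over all 90 other iron-related genes listed, 13 rose and 38 fell in the cold in CEN.PK113-7D, and 16 rose and 34 fell in EC1118, with median log2 changes of -0.17 and -0.03. The shares that fell were 42.2% and 37.8%, near the 36.6% and 30% of all genes, and the shares that rose were 14.4% and 17.8%, against 21.8% and 24.2%. Between strains 24 were higher and 13 lower in EC1118 at 15 °C (26.7% and 14.4%, against 19% and 14% of all genes). At 30 °C 20 were higher and 21 lower (22.2% and 23.3%), near the 21% and 20.4% of all genes. The interaction was called for 7 (7.78%, against 13% of all genes), all with positive values. They were FET3 (limited by the floor at 15 °C), AFT1, the copper regulator CUP2 (1.20) and the phosphate transporter PHO84 (3.61). The others were the palmitoyltransferase AKR1 (0.70), the aconitase ACO1 (0.45) and the ribonucleotide reductase subunit RNR4 (0.50). Genes of iron-sulfur cluster assembly split evenly, with 6 of 20 higher and 5 lower in CEN.PK113-7D and 4 higher and 6 lower in EC1118. Among 24 iron-using enzymes, CEN.PK113-7D had 3 higher and 9 lower in the cold, and EC1118 had 7 higher and 9 lower.

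With the 9 members left out as candidates, the genes whose profile over the 12 arrays was most like that of each siderophore gene were mostly outside iron metabolism. The other iron-related genes listed were only 90 of the 5449 genes, so most candidates were outside it too. By Pearson's r of log2 intensities, the closest were IQG1 to SIT1 (0.952), MRN1 to ARN1 (0.974), MID2 to ENB1 (0.988), CDC14 to FIT2 (0.987), BNA2 to FIT3 (0.975), YDR476C to FIT1 (0.929) and REC8 to FRE3 (0.901). These 12 arrays fall into 4 groups, so such values can follow the group means. With the group means removed, r was 0.82 for IQG1 with SIT1, 0.763 for MRN1 with ARN1 and 0.66 for CDC14 with FIT2. It was 0.853 for BNA2 with FIT3, 0.885 for YDR476C with FIT1 and 0.795 for REC8 with FRE3, but 0.101 for MID2 with ENB1. MFA2, a pheromone gene specific to mating type a, was also among the 3 closest to ENB1 (0.984, and -0.151 within groups). ARN2 and FRE5 were left out of this ranking because arrays were at the floor.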

How the data were processed

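The authors deposited 1 table of array intensities for 5900 probe sets, on a linear scale with a floor of 10; how probes were summarised and scaled is not given in the sources used here. Per the labels' protocols, biotin-labelled RNA was hybridised to 1 array per culture. Of the probe sets, 5498 had 1 gene in the platform annotation, 0 had several and 402 were unnamed. From the R64 gene table, 12 symbols were updated. For the 47 genes with several probe sets, the 1 with the highest mean log2 intensity over the arrays was kept. The deposited intensities were taken to log2 without further normalization. All 4 groups were fitted together with limma 3.58.1 in R 4.3.3 (8 residual degrees of freedom), with Benjamini-Hochberg adjustment over 5449 genes and a threshold of 0.05, and tested on simulated data. The number of arrays limits the precision, and no scan batch is known. Genes outside the set were named by rule: up to 3 per iron list and comparison with the smallest p, genes directly beside a member, and the 3 most similar profiles. AFT2, CCC2, YHL048C-A, ECM34, YHL042W, HPF1, YOL155W-A and YOL159C-A were chosen after their values were seen, and CTR2 was also named outside the rule. Members and lists were chosen with earlier results of these data known. Replicate numbers were checked for pairing: same-numbered arrays deviated together at 15 °C between strains (r = 0.478, 0.32 and 0.393), and not in every pair elsewhere. In the other comparisons, arrays numbered 1 did so too (r = 0.337 to 0.373), and those numbered 2 and 3 had r of -0.24 to 0.168. Alternatives were quantile normalization, median centring, a pseudocount of 50, a filter on the dimmest 25% of genes, a trended and robust prior, the compared groups alone, all probe sets, a replicate block, and leaving out each array.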

Additional observations from a re-analysis of the deposited data

Results flagged for a closer look

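For 4 of the 9 siderophore genes the effect of temperature differed between the strains in limma's interaction term (EC1118 minus CEN.PK113-7D, log2), against 13% of all genes (8.66% in the same direction): ENB1 by 2.09, SIT1 by 1.37, ARN1 by 0.72 and FIT3 by 0.59. ENB1 and FIT3 moved in opposite directions in the strains, and the fall of FIT3 in CEN.PK113-7D did not hold with median centring or quantile normalization. SIT1 and ARN1 fell in CEN.PK113-7D and did not pass in EC1118.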

How the results depend on the processing

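The number of siderophore genes called for temperature in CEN.PK113-7D, temperature in EC1118, strain at 15 °C, strain at 30 °C and the interaction was 6, 3, 5, 7 and 4. A filter on dim genes kept SIT1 and FIT3 alone, so that 2, 1, 1, 2 and 2 were called (61.9%, 56.8%, 31.8%, 42.0% and 13.3% of all genes). Leaving out each array in turn gave 5 to 6, 3 to 5, 4 to 6, 6 to 8 and 4 to 4, while 50.2% to 59.6%, 46.6% to 56.4%, 24.9% to 33.1%, 33.6% to 44.7% and 8.59% to 14.6% of all genes were called; the highest count for EC1118 came without EC1118 15 °C replicate 3. With the replicate number as a block the counts were 6, 4, 5, 7 and 4 (60.6%, 56.9%, 35.0%, 44.0% and 14.4% of all genes). The block added 1 call, FIT2 in EC1118 (limma adjusted p = 0.0292), and ended none. Only in the strain comparison at 15 °C did same-numbered arrays deviate together for every number. The 4 interactions passed under all alternatives in which they were tested. Of 856 values recomputed for single genes, 812 kept direction and side of the threshold. Many of the 856 could not change a log2 difference between 2 groups, such as leaving out an array of another group or changing the variance prior. The 812 are therefore not separate evidence. Changes of sign, without passing, were found for 16. These were ARN1 in EC1118 (0.0483 with quantile normalization, 0.0822 with centring, and -0.0413 to 0.0483 over the left-out arrays), SIT1 in EC1118 (-0.0205 to 0.242 over the left-out arrays, the lowest without EC1118 15 °C replicate 3), FIT1 in CEN.PK113-7D (0.0944 with quantile normalization, 0.0612 with centring, and -0.131 to 0.045 over the left-out arrays), FRE3 in CEN.PK113-7D (-0.0944 to 0.188 over the left-out arrays) and FRE3 in EC1118 (-0.189 to 0.0268). Between strains they were FIT3 at 15 °C (-0.0369 with quantile normalization), FRE3 at 30 °C (0.0177 with quantile normalization) and FRE5 at 30 °C (0.0684 with quantile normalization, and -0.306 to 0.0911 over the left-out arrays). The cause was not tested. Of all genes called, the share higher moved from 37.3% to 52.1% with quantile normalization and 50.6% with centring for temperature in CEN.PK113-7D, from 44.7% to 52.7% and 54.9% in EC1118, and from 66.5% to 50.8% and 59.0% for the interaction. Signal limits ARN2 in CEN.PK113-7D, ENB1 in EC1118 at 30 °C, FIT2 in EC1118 and FRE5 throughout.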

Other observations

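Of 8 listed genes of copper supply, on which the oxidase Fet3 depends, 2 were higher in EC1118 at both temperatures, the transporters CTR1 and CTR3. Of all genes, 19% were higher at 15 °C and 21% at 30 °C, so these counts were near the background. At 15 °C 0 were lower, and 1, CUP2, was lower at 30 °C. The transporter CTR2 did not pass (log2 0.11 and 0.0008). CTR3, a high-affinity copper transporter, read 99.0, 290.1 and 437 at 15 °C and 256, 155 and 172 at 30 °C in CEN.PK113-7D, and 1506, 1415 and 1632 at 15 °C and 1332, 1844 and 1384 at 30 °C in EC1118. It was 6.52-fold higher in EC1118 at 15 °C and 7.93-fold higher at 30 °C (limma adjusted p = 0.00104 and 3.94e-04), higher on 6 of 6 EC1118 arrays than on any CEN.PK113-7D array. CTR1, the other high-affinity copper transporter, was 2.59-fold and 1.88-fold higher (limma adjusted p = 0.00145 and 0.0107). FRE7, a reductase gene switched on when copper is short, is not among these 8. It was at least 3.88-fold and at least 3.71-fold higher as ratios of geometric means (limma adjusted p = 1.32e-06 and 1.44e-06), with CEN.PK113-7D arrays at or near the floor. The reductase gene FRE1 was not higher in EC1118, with means of 77.7 against 147 at 15 °C and 224 against 227 at 30 °C. CTR3, CTR1 and FRE7 did not pass for temperature in either strain, and their interactions did not pass.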
